A study of Mus musculus with 6 samples.

Results

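The Ces1 carboxylesterases were 6 of the 2033 gene rows in a deposited table of raw read counts from mouse colon: Ces1b, Ces1c, Ces1d, Ces1e, Ces1f and Ces1g. They were taken by name, as every row whose reference gene symbol is Ces1 followed by a letter, and each had a row of its own. The study compared the colon of mice given PFOA (perfluorooctanoic acid, a persistent fluorinated surfactant) over a long term with the colon of control mice, in 3 libraries per group. The labels name 6 frozen mice per group and do not say how mice map to libraries, so p-values measure only the spread between libraries, which may be technical. The sources used here do not give the strain, sex, age, dose, duration or part of the colon. A difference in the sampled colon part between the groups therefore cannot be told apart from an effect of PFOA.

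Carboxylesterases are serine hydrolases of the endoplasmic reticulum that split ester, amide and thioester bonds in drugs, in other foreign compounds and in lipids such as triglycerides. In the mouse, the ancestral Ces1 gene has been duplicated in tandem into a cluster of closely related genes, best known from the liver, where some members take part in lipoprotein assembly. In the intestine these enzymes hydrolyse ester drugs during absorption and act on dietary lipid. Their genes include known targets of nuclear receptors that sense lipids and foreign compounds.

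The GENCODE M21 annotation, on the mm10 build that the submitters' processing notes name, places 8 Ces1 genes on the minus strand of chromosome 8 between 93020214 and 93379725, a span of 360 kb. In order along the chromosome, the deposited rows were Ces1b at 93056728 to 93080017, Ces1c at 93099015 to 93131271, Ces1d at 93166068 to 93197838, Ces1e at 93201218 to 93229619, Ces1f at 93256236 to 93279747 and Ces1g at 93302369 to 93337308. All 6 are protein-coding. The outer genes Ces1a and Ces1h had no row in the table, which does not show that they were unchanged.

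How far the members differ in sequence bears on whether reads can be told apart, so the 60 coding bases of exon 5 around the active-site serine codon of Ces1d are shown with the bases aligned to them in the other members. They are read from the GENCODE M21 transcripts, 5′ to 3′, and capitals mark the bases that differ from Ces1d.
Ces1b (chr8:93071867-93071926): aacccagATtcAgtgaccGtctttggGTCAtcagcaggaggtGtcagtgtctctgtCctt
Ces1c (chr8:93123100-93123159): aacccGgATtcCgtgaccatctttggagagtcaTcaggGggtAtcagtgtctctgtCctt
Ces1d (chr8:93187743-93187802): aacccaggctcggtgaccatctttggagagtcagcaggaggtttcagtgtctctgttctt
Ces1e (chr8:93217499-93217558): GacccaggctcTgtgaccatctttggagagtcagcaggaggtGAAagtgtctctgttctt
Ces1f (chr8:93269974-93270033): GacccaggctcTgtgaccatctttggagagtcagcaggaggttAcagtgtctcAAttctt
Ces1g (chr8:93328378-93328437): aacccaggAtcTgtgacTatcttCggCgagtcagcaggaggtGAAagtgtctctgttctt

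In this stretch no 2 members were identical. It was chosen for its place and is not where all members are most alike: Ces1b and Ces1c differed from each other at 10 bases. Ces1e and Ces1f each differed from Ces1d at 5 bases, Ces1c and Ces1g at 8 and Ces1b at 10. Over whole transcripts, Ces1b and Ces1c were the closest pair, with 92.3% identical bases over their aligned length, and every other pair lay between 77.7% and 81.4%. Of all stretches of 50 bases in the longest coding transcript, 17.0% in Ces1c and 11.6% in Ces1b also occurred in a transcript of another gene, counted over all Ces genes and 3 pseudogene or unclassified loci inside the cluster. The share was 1.28% in Ces1d, 3.21% in Ces1e, 1.60% in Ces1f and 1.67% in Ces1g. With stretches of 100 bases it was 0 in these 4 genes and 1.29% and 1.39% in Ces1b and Ces1c, all of it shared between this pair. The sources used here do not give the read length or the treatment of multi-mapping reads, so Ces1b and Ces1c are the members whose counts are least certain to be their own.

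All 6 members passed into a table that holds only rows differing between the groups. Of them, 1035 had the higher mean raw count in PFOA and 998 in control, and no row had a log2 ratio between -1.08 and 0.92. The quasi-likelihood test of edgeR could be run on 1608 rows after its filter on low counts, and all of them (100%) passed an adjusted p of 0.05, with 50.0% higher and 50.0% lower in PFOA. A call for a Ces1 row is therefore no evidence by itself, and the size and direction of the changes within the family are what these data describe. The listed counts summed to between 1771120 and 2269892 per library. Within each group replicate 1 stood apart from the others: the chi-square per degree of freedom between libraries was 139 and 122 for control replicate 1 against 22.6 between control replicates 2 and 3, and 286 and 367 for PFOA replicate 1 against 34.9 between PFOA replicates 2 and 3.

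The family did not move as a block. Ces1d, Ces1e, Ces1f and Ces1g were higher in the PFOA libraries, and Ces1b and Ces1c, which lie next to each other at the low-coordinate end of the listed cluster, were lower. The rises ranged from 2.00-fold for Ces1e to 81.9-fold for Ces1g. In bulk tissue, a change in the number of cells of a type and a change in RNA per cell cannot be told apart. Of the 6 members, 4 passed the low-count filter. All 4 of these were called higher, where 50.0% of all tested rows were. No member was called lower with the filter, because Ces1b and Ces1c were too low to be tested (edgeR; 0 also at an unadjusted p under 0.05, and 0 with DESeq2 and limma-voom, which used the same filter).

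**Figure D1:**
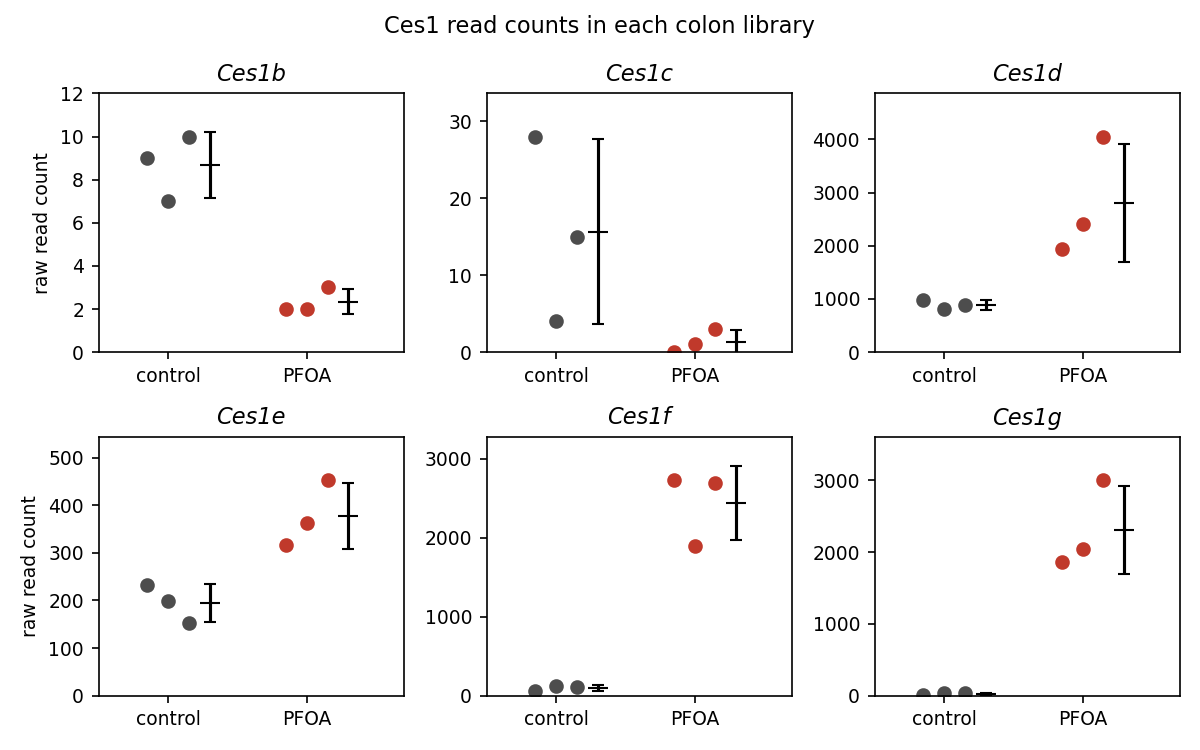
Raw read counts of the 6 Ces1 rows, in gene order along the chromosome, in each of the 3 control libraries (grey points) and 3 PFOA libraries (red points), with the group mean and SD (black); each panel has its own vertical axis. The groups do not overlap in any panel, with Ces1g going from 15 to 40 counts in control to 1869 to 3005 in PFOA and Ces1b and Ces1c falling to 3 counts or fewer.

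Ces1g (ENSMUSG00000057074.6), a microsomal carboxylesterase of liver and intestine known for its part in lipid and lipoprotein metabolism, showed the largest change of the family. Its counts were 15, 40 and 32 (control replicates 1, 2 and 3) and 1869, 2040 and 3005 (PFOA replicates 1, 2 and 3). The lowest PFOA library thus held far more Ces1g counts than the highest control library. As CPM (counts relative to the scaled listed total of a library), this was 7.31 to 19.4 CPM in control and 960.3 to 1402 CPM in PFOA. The log2 fold change was 6.35 ± 0.42 (SE, 3 libraries a side; edgeR adjusted p = 4.69e-05). Of the 1608 tested rows, 20 had a larger rise. Leaving out control replicate 1 gave 5.91, and leaving out PFOA replicate 1 gave 6.39.

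Ces1f (ENSMUSG00000031725.8), a carboxylesterase known to hydrolyse triacylglycerol in fat cells, rose 25.7-fold. The 3 control libraries held 60, 119 and 115 reads and the PFOA libraries 2732, 1901 and 2697. Unlike for Ces1g, PFOA replicate 1 held the highest count. The groups did not overlap, and the log2 fold change was 4.70 ± 0.36 (SE, 3 libraries a side; edgeR adjusted p = 7.54e-05). A larger rise was seen in 52 of the tested rows. Without control replicate 1 it was 4.32, and without PFOA replicate 1 it was 4.51.

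Ces1d (ENSMUSG00000056973.6), the triacylglycerol hydrolase that mobilises stored fat in liver and adipose tissue, was the most abundant member in control and rose 3.25-fold. The 3 control libraries held 978, 804 and 883 reads and the PFOA libraries 1934, 2418 and 4052. The control libraries lay close together, while the PFOA libraries spread 2.10-fold between the lowest and the highest. The log2 fold change was 1.68 ± 0.28 (SE, 3 libraries a side; edgeR adjusted p = 0.00127). For comparison, the median over all rows called higher was 1.71, so the rise of Ces1d is of a usual size for this table.

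Ces1e (ENSMUSG00000061959.13), known as egasyn for holding beta-glucuronidase in the endoplasmic reticulum, rose least. The 3 control libraries held 232, 198 and 152 reads and the PFOA libraries 316, 362 and 453, with no overlap between the groups. The log2 fold change was 0.99 ± 0.26 (SE, 3 libraries a side; edgeR adjusted p = 0.00762). This row lay close to the edge of what the table lists: only 36 of the 2033 rows had a smaller ratio of mean raw counts in either direction. Its call was lost without control replicate 3, the lowest of the control libraries (log2 fold change 0.69, edgeR adjusted p = 0.0549).

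Ces1c (ENSMUSG00000057400.14), a carboxylesterase that the liver secretes into plasma, was nearly absent from the PFOA libraries. The 3 control libraries held 28, 4 and 15 reads and the PFOA libraries 0, 1 and 3. The control libraries varied 7-fold, and the lowest of them was only 1 count above the highest PFOA library. Ratios of summed, scaled counts put control 11.4-fold above PFOA, with a 95% exact (Clopper-Pearson) interval from 4.17 to 43.6 that covers counting error only. Without the low-count filter, edgeR gave a log2 fold change of -3.48 ± 0.98 (SE, 3 libraries a side; edgeR adjusted p = 0.0102). Leaving out control replicate 1 gave -2.74, and leaving out PFOA replicate 3 gave -4.66.

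Ces1b (ENSMUSG00000078964.2), the closest relative of Ces1c, was low throughout. The 3 control libraries held 9, 7 and 10 reads and the PFOA libraries 2, 2 and 3, so the groups did not overlap although they differed by a handful of reads. Control lay 3.60-fold above PFOA, with a 95% exact counting interval from 1.52 to 9.83. Without the filter, the log2 fold change was -1.87 ± 0.51 (SE, 3 libraries a side; edgeR adjusted p = 0.00941). In that fit 99.9% of the 2033 rows passed, with 50.8% higher and 49.1% lower, and 4 members were higher and 2 lower, so these 2 calls again restate that the rows are listed. That the raw counts of the groups do not overlap held for all 6 members and for 95.8% of all rows.

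**Figure D2:**
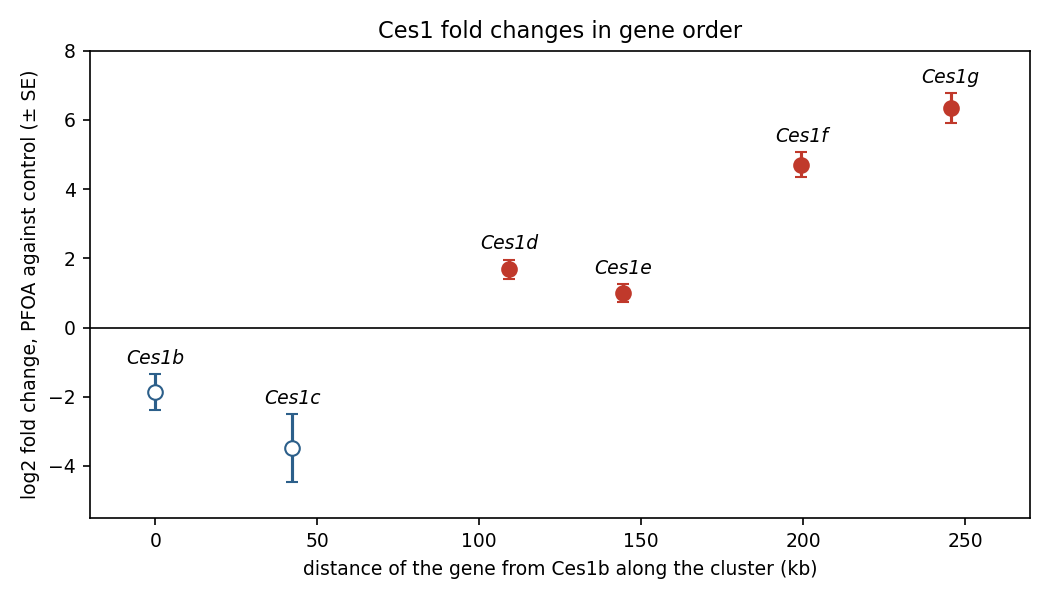
Log2 fold change of each Ces1 row (vertical axis, PFOA against control, bars show the SE, 3 libraries per group) against the distance of its lowest coordinate from that of Ces1b (horizontal axis, kb). Filled points come from the edgeR fit with the low-count filter and open points from the fit without it. Ces1b and Ces1c lie below 0, at -1.87 and -3.48, and Ces1f and Ces1g, at the other end, lie highest, at 4.70 and 6.35, while Ces1e (0.99) lies below its neighbour Ces1d (1.68).

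Along the chromosome, the direction changed between Ces1c and Ces1d, and the largest rises were those of the last listed members, Ces1f and Ces1g. The order was not strictly graded, since Ces1e had a smaller log2 fold change than Ces1d on its low-coordinate side. The cluster also holds 2 further listed rows. Gm45909, an unclassified locus at 93190328 to 93191358, lies within Ces1d on the same strand without sharing an exonic base with it. The 3 control libraries held 33, 30 and 33 reads and the PFOA libraries 118, 141 and 131, which is 2.06 ± 0.27 on the log2 scale (SE, 3 libraries a side; edgeR adjusted p = 5.14e-04) next to 1.68 for Ces1d. Whether its reads come from unspliced Ces1d RNA was not tested. Gm45727, an unprocessed pseudogene between Ces1e and Ces1f (93238653 to 93251175), had no count in control and 16, 15 and 14 in PFOA. Gm45727 was at least 15.5-fold higher in PFOA if the empty control group is set to 3 counts in all. That is about the one-sided 95% Poisson limit for an empty group, and it covers counting error only. None of the 523 stretches of 50 bases in the Gm45727 transcript occurs in a transcript of a Ces gene. Outside the cluster, the nearest listed rows were Gm45774, a long non-coding RNA 833.4 kb beyond Ces1g with at most 8 counts, and Sall1, 4013 kb before Ces1b. Sall1, which encodes a zinc finger transcription factor, was lower in PFOA (240, 200 and 283 counts against 123, 104 and 95).

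The lower pair shares more than its transcripts. RefSeq (GRCm38.p6) gave sequences before the start of 4 of the 6 members, and Ces1d and Ces1f had none in the table. For Ces1b and Ces1c the 250 bases before the start are shown, with Ces1g, the member with the largest rise, beside them. Bases inside a gene of either annotation were left out, which shortened the window of Ces1g to 151 bases. All are on the minus strand and read 5′ to 3′, and capitals mark the longest run that the Ces1b and Ces1c windows have in common.
Ces1b (chr8:93080018-93080267): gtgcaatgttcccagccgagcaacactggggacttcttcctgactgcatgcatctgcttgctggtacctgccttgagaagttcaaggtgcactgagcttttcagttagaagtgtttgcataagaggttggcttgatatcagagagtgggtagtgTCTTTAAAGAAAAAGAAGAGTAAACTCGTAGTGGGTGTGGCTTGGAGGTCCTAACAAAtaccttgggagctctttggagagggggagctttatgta
Ces1c (chr8:93131284-93131533): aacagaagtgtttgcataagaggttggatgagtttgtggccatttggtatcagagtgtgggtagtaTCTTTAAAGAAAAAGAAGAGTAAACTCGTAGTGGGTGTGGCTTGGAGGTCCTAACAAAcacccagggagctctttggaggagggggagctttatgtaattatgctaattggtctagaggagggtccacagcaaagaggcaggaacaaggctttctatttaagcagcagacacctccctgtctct
Ces1g (chr8:93337309-93337459): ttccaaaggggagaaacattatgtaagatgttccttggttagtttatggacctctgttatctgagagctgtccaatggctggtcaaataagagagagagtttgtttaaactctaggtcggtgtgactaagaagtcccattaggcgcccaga

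The shared run of Ces1b and Ces1c was 58 bases long, and 93.9% of the 147 bases that aligned between their windows were identical. In Ces1b the run began 96 bases before the start and in Ces1c 184 bases before it. RefSeq gave 2 starts for Ces1b, and the most upstream was used. The distance in Ces1b and the aligned length depend on that choice. The longest run shared by the Ces1g window was 7 bases with Ces1b, 8 with Ces1c and 11 with Ces1e, whose window is not shown. By aligned bases, Ces1g was 74.6% identical to Ces1c over 122 bases and 78.3% identical to Ces1b over 23. It was 73.2% identical to Ces1e over 82 bases. The motif AGGTCA, bound by nuclear receptors, was searched on both strands and matched 0 of the 4 windows, against 14.0% of all RefSeq promoter windows of 250 bases, 13.5% of those of 238 bases (Ces1e) and 8.52% of those of 151 bases. A direct repeat of AGGTCA with any 1 base between the copies, which PPAR binds with its partner RXR, therefore matched none either, against 0.0335% of windows of 250 bases. Of the other motifs searched, TATAAA and GTTAAT also matched 0 of the 4 windows. CCAAT matched 2, those of Ces1c and Ces1g, against 33.8% of windows of 250 bases and 20.1% of those of 151 bases. These matches describe letters in short windows only, and 4 windows are too few to read an absence from.

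Summed over the 6 rows, the family went from 1322, 1172 and 1207 counts to 6853, 6724 and 10213. The libraries of each group lay together and the groups far apart. The mean log2 CPM of the sum was 9.19 ± 0.12 (SD, n = 3) in control and 11.9 ± 0.30 (SD, n = 3) in PFOA, a difference of 2.70 (6.52-fold). Without Ces1d, the most abundant member, the difference was 3.93. An exact two-sided permutation test gave p = 0.1, the smallest that 3 libraries against 3 can give. This sum does not depend on how reads were divided between the 6 members. It can still depend on whether multi-mapping reads were counted and on reads shared with other loci of the cluster.

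The make-up of that sum differed too. Within a library, members can be compared as counts per kilobase, here of merged exon length, which can exceed the length of a single transcript. The gap was largest for Ces1f, with 3285 merged bases against 1926 in its longest coding transcript. Ces1d had 2369 against 2004, and Ces1g had 2388 for both. The level of Ces1f and its rank among the leading members in PFOA therefore depend on the length used. In control the order was Ces1d (339 to 413 counts per kilobase), then Ces1e (69.4 to 106), then Ces1f (18.3 to 36.2), with no overlap between these neighbours. Ces1g (6.28 to 16.8), Ces1c (1.72 to 12.1) and Ces1b (3.56 to 5.09) followed, and the range of Ces1c overlapped both others. In PFOA the leading 3 were Ces1d (816 to 1710), Ces1g (783 to 1258) and Ces1f (579 to 832), whose ranges overlap. Ces1e (144 to 207) lay clearly under them and Ces1b and Ces1c (1.53 or less) at the bottom. By merged exon length, Ces1d led in every library except PFOA replicate 1, where Ces1f (832) was above it (816).

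**Figure D3:**
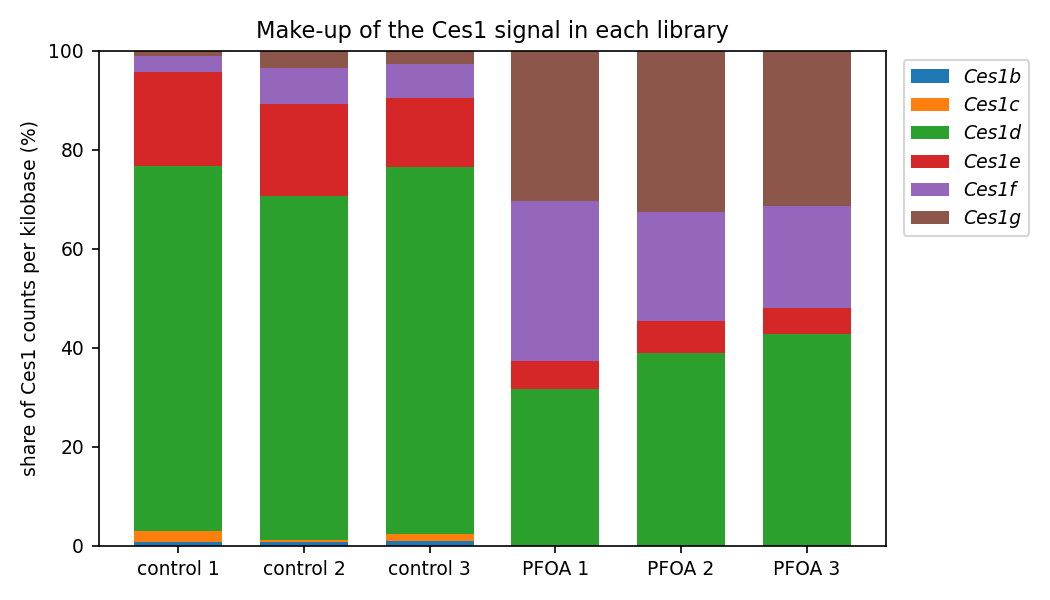
Share of each Ces1 member in the summed Ces1 counts per kilobase of merged exon length (vertical axis, percent) in each of the 6 libraries (one bar each, colours stand for members). Ces1d holds 69.5% to 74.2% in the control libraries and 31.7% to 42.8% in the PFOA libraries, and Ces1f and Ces1g hold larger shares in PFOA than in control.

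Ces1g made up 1.14%, 3.41% and 2.65% of the Ces1 counts in control replicates 1, 2 and 3 and 27.3%, 30.3% and 29.4% in PFOA replicates 1, 2 and 3. The 95% exact (Clopper-Pearson) intervals of these shares, which cover counting error only, lay between 0.636% and 4.62% in control and between 26.2% and 31.4% in PFOA. Its mean share was 2.40% ± 1.16 (SD, n = 3) in control and 29.0% ± 1.57 (SD, n = 3) in PFOA (exact two-sided permutation p = 0.1, the smallest possible). A share within a library does not depend on how libraries are scaled against each other. The share of Ces1f went from 8.07% ± 3.08 to 31.5% ± 7.29 (SD, n = 3 each). Those of Ces1d and Ces1e went from 71.9% ± 2.90 to 34.6% ± 5.84 and from 15.7% ± 2.69 to 4.81% ± 0.50, although both genes had more counts in PFOA. Per kilobase, Ces1g stood at 0.0152, 0.0494 and 0.0360 of Ces1d in control and at 0.959, 0.837 and 0.736 in PFOA. The libraries of the PFOA group differed most in Ces1f, which held 39.9% of the Ces1 counts in replicate 1 against 28.3% and 26.4% in replicates 2 and 3.

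Other carboxylesterases, a list of 12 genes, had 6 rows. Among the 4 tested, 3 were higher and 1 lower, where 50.0% of all tested rows were higher. The median log2 fold change was 1.71 over all tested rows called higher and -1.8 over those called lower. Ces2a, Ces2b and Ces2e, intestinal carboxylesterases of the second subfamily, rose with log2 fold changes of 2.02 ± 0.35, 1.99 ± 0.32 and 2.09 ± 0.35, and Ces2g fell by 1.63 ± 0.31 on that scale (SE, 3 libraries a side; edgeR adjusted p = 0.00152, 0.00114, 0.00125 and 0.00212). Ces3a and Ces3b, too low to be tested, had 6, 16 and 3 and 4, 44 and 4 counts in control and at most 1 count in any PFOA library. As in Ces1, listed rows of the Ces2 subfamily went in both directions.

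**Figure D4:**
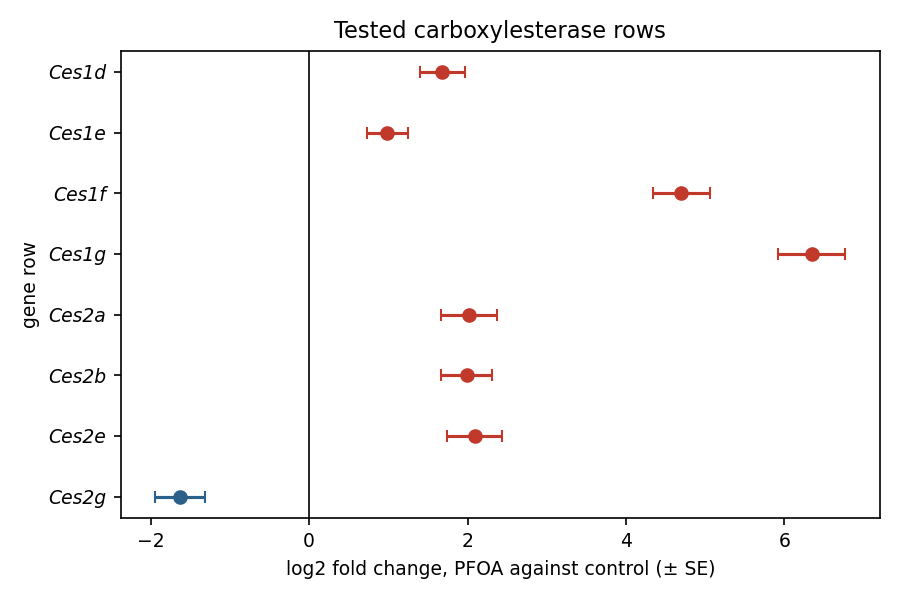
Log2 fold change (horizontal axis, PFOA against control, bars show the SE, 3 libraries per group) of the 8 carboxylesterase rows that were tested. Ces1f (4.70) and Ces1g (6.35) lie above the Ces2 rows, which lie near 2 except for Ces2g at -1.63.

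Of 32 genes of other ester and lipid hydrolases, 5 had a row. The 4 tested were called higher, where 50.0% of all tested rows were. Pnliprp1, a relative of pancreatic lipase that was too low to be tested, went from 25, 5 and 2 counts to 0 in each PFOA library. Lpl, lipoprotein lipase, went from 74, 74 and 47 counts to 418, 465 and 1390 (log2 fold change 3.55 ± 0.52, SE, 3 libraries a side; edgeR adjusted p = 7.70e-04). Nceh1, a cholesterol ester hydrolase, and Mgll, which splits monoglycerides, rose by 1.49 and 1.37 on the log2 scale (edgeR adjusted p = 7.76e-04 and 0.00113). Of 24 genes of triglyceride and retinyl ester handling, 9 had a row, 7 higher and 2 lower, where 50.0% of all tested rows were higher. Fabp2, the intestinal fatty acid binding protein, and Cidec, which fuses fat droplets, rose by 3.88 ± 0.73 and 3.30 ± 0.56, and Aldh1a1, which makes retinoic acid, by 2.17 ± 0.32 (log2 scale, SE, 3 libraries a side, all past an edgeR adjusted p of 0.05). Rbp2, which carries retinol in enterocytes, fell by 2.21 ± 0.37 (edgeR adjusted p = 0.00124).

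Receptors and factors tied to carboxylesterase genes in the liver or gut, a list of 25, had 7 rows. Of these, 5 were higher and 2 lower, where 50.0% of all tested rows were higher. Ppara, the receptor for fatty acids that PFOA is known to activate, went from 1708, 1643 and 1758 counts to 7039, 10115 and 9728 (log2 fold change 2.43 ± 0.21, SE, 3 libraries a side; edgeR adjusted p = 1.13e-04). Pparg, its relative in fat cells and colonocytes, rose by 2.07 ± 0.25 and Nr1h4, the bile acid receptor FXR, by 1.72 ± 0.23 (log2 scale, SE, 3 libraries a side, both past an edgeR adjusted p of 0.05). Nr1i3, which encodes the drug-sensing receptor CAR, went the other way, from 182, 175 and 162 counts to 62, 16 and 7 (log2 fold change -2.50 ± 0.72, edgeR adjusted p = 0.011). Foxa2, a forkhead factor of endoderm, fell by 2.15 ± 0.25 (edgeR adjusted p = 3.69e-04). A link between these genes and the Ces1 rows was not tested.

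Markers of other tissues and of colon regions moved with the groups as well. Of all tested rows, 50.0% were higher and 50.0% lower. All 10 listed rows of 12 distal colon markers were lower in PFOA (summed level 12870 to 17770 CPM in control and 263 to 342 CPM in PFOA). Of 9 proximal colon markers, 5 of 6 rows were higher (8086 to 20700 CPM against 52160 to 122200 CPM). In the PFOA libraries most of the proximal sum was Car1 (39638 to 125029 counts) and Cyp2c55 (42284 to 77437 counts). The row that fell, Aqp4, went from 2468, 12181 and 8861 counts to 401, 266 and 286. Small intestine markers had 4 rows of 14 genes, 3 higher and 1 lower (432 to 954 CPM against 1947 to 2723 CPM). In the PFOA libraries most of the small intestine sum was Slc10a2 (2504 to 4144 counts), and the row that fell was Rbp2. The part of these shifts in the Ces1 changes was not tested. Liver is a tissue rich in Ces1 RNA. Hepatocyte markers had 2 rows of 14 genes, Alb and Ttr, and both were lower in PFOA (164 to 487 CPM against 7.53 to 28.4 CPM). Alb, the serum protein albumin, had 38, 46 and 20 control counts and 0, 0 and 1 under PFOA.

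Fat tissue is known to express Ces1d and Ces1f. Adipocyte markers had 7 rows of 14 genes, all higher in PFOA by mean raw count, where 1035 of the 2033 rows were. Their summed level was 929 to 1126 CPM in control and 3727 to 5747 CPM in PFOA. Most of that sum was Pparg, which colonocytes also express, with 1594 to 2183 counts in control and 7123 to 8958 in PFOA, while no other row passed 1099 counts in any library. The other 6 rows were not alike in PFOA replicate 2. Adipoq, the adipocyte hormone adiponectin, had 1, 3 and 0 control counts and 54, 0 and 150 under PFOA, and Plin1, the fat droplet coat protein, had 4, 1 and 0 against 61, 0 and 128. Cfd (adipsin) and Car3 (a carbonic anhydrase) were likewise low there, with 225, 3 and 522 and 417, 7 and 1099 counts in the PFOA libraries. Cidec and Acvr1c were above every control library in all PFOA libraries, with 366, 144 and 315 and 641, 580 and 562 counts. The part of fat tissue in the Ces1 changes was not tested. Of the macrophage, airway and kidney tubule lists no gene had a row, and the 1 pancreatic row, Cela1, was lower in PFOA.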

How the data were processed

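Colon RNA of 3 control and 3 PFOA libraries was sequenced (libraries made with a SMARTER kit, per the labels' protocols). Per the submitters' processing notes, HISAT2, HTSeq and the mm10 build were used. The authors deposited raw read counts for 2033 gene rows with positions and lengths, and the 6 count columns were matched to samples by the labels' descriptions. For the Ces1 rows the deposited length equals the merged exon length of GENCODE M21. The sources used here do not give the rule that selected the rows, the use of strand or the sequencing depth. Sums of listed counts are not depths.

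The whole table was fitted with edgeR 4.0.16 (R 4.3.3): filterByExpr, TMM scaling, glmQLFit and glmQLFTest without covariates, two-sided, Benjamini-Hochberg adjustment over all tested rows. The SE is the absolute log2 fold change divided by the square root of F. Plain folds are ratios of summed counts over TMM-scaled totals. Single values per library were compared by exact permutation tests (scipy 1.17.1). The edgeR step was tested on simulated data in which most rows did not change. Every tested row of the real table differs between the groups, so that run does not cover scaling or error rates here. No 2 replicates agreed within sampling noise (smallest chi-square per degree of freedom 22.6). Alternatives were DESeq2 1.42.0, limma-voom (limma 3.58.1), other scalings and filters, the replicate number as a block and each library left out. The 13 gene lists and the Ces1 members were chosen with earlier results of these data known. Named genes were all Ces1 rows, up to 4 rows with the smallest p per list, listed rows within 1 Mb of the cluster and the 5 rows nearest in profile to the most abundant member. Sall1, Nr1i3, Pnliprp1, some adipocyte markers and the rows compared with Ces1g were named after their values were seen.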

Additional observations from a re-analysis of the deposited data

How the results depend on the processing

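Ces1d, Ces1f and Ces1g kept their direction and their edgeR, DESeq2 or limma-voom call in all 15 alternatives each, with log2 fold changes of 1.38 to 1.84, 4.32 to 4.92 and 5.91 to 6.63. Ces1e kept its call in 14 of 15 (0.69 to 1.09), the exception being the fit without control replicate 3 (0.69, edgeR adjusted p = 0.0549). Ces1b and Ces1c, fitted without the low-count filter, kept theirs in 14 of 14 each (-2.05 to -1.73 and -4.66 to -2.74); combining that choice with the other alternatives was added after seeing the data. The number of Ces1 rows called lower was 0 with the filter, 2 without it and 2 where rows needed only 1 CPM in 3 of the libraries, because these settings test more rows, and it ranged from 0 to 2 when single libraries were left out. With listed totals in place of TMM the median log2 fold change of all tested rows moved by -0.20, and Ces1e stood at 0.77 (edgeR adjusted p = 0.0345). Same-numbered libraries did not deviate together (correlations of 0.114, -0.0306 and 0.102), so the numbers were not taken as pairs. With the replicate number as a block 4 Ces1 rows were called higher and 0 lower, where 780 and 799 of 1608 tested rows were. In that fit Ces1g stood at 6.40 (edgeR adjusted p = 7.64e-04). DESeq2 called 797 of the 1608 tested rows higher and 804 lower, and limma-voom 783 and 804. A kept call therefore again restates that the row is listed. The group difference of the summed log2 level ranged from 2.54 to 2.84 with single libraries left out, was 2.50 with listed totals and 3.93 without Ces1d, the most abundant member, and that of the Ces1g share from 25.9 to 27.5 percentage points. Low counts limit Ces1b and Ces1c.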

Other observations

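The rows nearest in profile were found by the distance between log2 CPM values centred per row, over 6 libraries and 1176 rows with a descriptive symbol, as a description only. All rows share the group difference for which they are listed, and the prior count pulls rows of few reads together. For Ces1d, the most abundant member, the nearest were Tekt1 (distance 0.305), Hoxb2 (0.376), Drd3 (0.382), Ctxn3 (0.497) and Camk2n1 (0.574). Tekt1 and Drd3 had at most 7 and 16 counts in any library. Camk2n1, an inhibitor of the kinase CaMKII, went from 727, 600 and 685 counts to 1465, 2038 and 2054.

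For Ces1g the nearest were Malrd1 (1.19), Prkg2 (1.55), Prap1 (1.56), Cyp3a44 (1.57) and Sptssb (1.58). Malrd1, which is known for its part in the control of bile acid synthesis by the intestine, went from 12, 35 and 13 counts to 801, 2081 and 1781. Prap1, a lipid-binding protein secreted by the intestinal epithelium, went from 2, 3 and 0 counts to 351, 261 and 264. Within the family, Ces1d and Ces1e were the closest pair (0.960), followed by Ces1b and Ces1c (2.00) and Ces1f and Ces1g (2.08). Each of these pairs is adjacent among the listed members. The adjacent pairs Ces1c and Ces1d (4.955) and Ces1e and Ces1f (4.699) were further apart than the non-adjacent Ces1b and Ces1e (2.853). The distances include the group difference, so in part they restate the fold changes.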
